A study of Arabidopsis thaliana with 6 samples.

Results

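A set of 41 nuclear genes was lowest in replicate 1, intermediate in replicate 2 and highest in replicate 3 of wild-type Arabidopsis seeds, and was followed into the 3 libraries of the mutant. RNA-seq had been performed on seeds taken 8 days after pollination. They came from Col-0, the common laboratory strain used as the wild type, or from tt7-7, a mutant line in the same accession whose affected gene, TT7, encodes flavonoid 3'-hydroxylase, an enzyme of flavonoid synthesis. Each genotype had 3 libraries, and no treatment or other allele was given for either. The genes were those outside the plastid and mitochondrial genomes with Col-0 replicate 1 below replicate 2 below replicate 3, a ratio of replicate 3 to replicate 1 of at least 4 after adding 1 RPKM to each, and at least 5 RPKM in replicate 3. RPKM is the number of reads scaled by transcript length and by the total reads of the library. Of 16857 nuclear genes in a table of 16967, 50 met these thresholds, and 9 of them were cruciferins, SESA albumins or oleosins, the main storage and oil body coat proteins of the seed, which were left out. Replicate numbers are names of libraries and carry no order in time or dose. The Col-0 values chose the genes and are given as a description without a test, whereas the rule used neither the tt7-7 values nor the gene sequences. The tt7-7 values bore on the choice only through the deposited table, whose minimum level 1 of the genes, PYD4, met in tt7-7 and not in Col-0.

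In the maturation phase an Arabidopsis embryo fills with storage proteins and oil and then acquires tolerance of drying. Storage proteins are packed into vacuoles whose membranes carry seed-specific aquaporins, oil is held in droplets coated with oleosins, caleosins and steroleosins, and late embryogenesis abundant (LEA) proteins, which are very hydrophilic, accumulate before the seed dries. Many of these genes are activated by the B3-domain factors ABI3, FUS3 and LEC2, which bind RY elements in promoters, and by basic leucine zipper factors of the abscisic acid pathway, which bind ABRE elements and the G-box. The programme belongs mainly to the embryo and in part to the endosperm.

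Among the 41 genes, 15 belonged to lists written from general knowledge of this programme. These comprised 7 of the 31 LEA and dehydrin genes present in the table, 4 of 11 genes for oil body proteins other than oleosins, 3 of 14 genes for storage vacuole, processing and vicilin-like proteins, and 1 of 10 genes for stress protection. None of the 16 oil synthesis genes and none of the 17 maturation regulators in the table was among the 41. The other 26 genes were in no list.

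The promoters were examined because the rule did not use their sequence. Windows of 300 bases, 250 before and 50 after the annotated gene start, were read from the RefSeq genome and annotation of assembly TAIR10.1 for all 41 genes. The 250 bases before the start are printed here for 6 genes, 5' to 3' in the direction of the gene, with matches to the RY core CATGCA and the ABRE core ACGTG on either strand in capitals; TGCATG and CACGT are the same letters read on the opposite strand. The G-box CACGTG contains the ABRE core on both strands and counts as 2 matches of it, and the RY repeat CATGCATG likewise holds 2 matches of the RY core. AtLEA4-1 (chr1:11774234-11774483 on the plus strand) is shown because it had the most matches, 6. TIP3;1 (chr1:27521694-27521943 on the plus strand) and PAP85 (chr3:8013942-8014191 on the minus strand) are shown for the full RY repeat, LEA (chr2:9207126-9207375 on the minus strand) for RY cores in both directions beside an ABRE core, and AT1G04560 (chr1:1244697-1244946 on the plus strand) for 2 G-boxes. PDF2.1 (chr2:538000-538249 on the plus strand), which departed from the other genes in tt7-7, held no match. Other genes that departed there varied: LHB1B1 held 3 matches, PELPK1 2, AT2G33830 1, and FOLB3 and PYD4 0. PELPK1 and PYD4 had replicate 2 lowest and replicate 1 highest in tt7-7. Of the others in that order, AT3G02480 and AT5G07330 held 3, AGP14 1, and AT1G19900 and FER2 0. GLYI8, with tt7-7 replicate 2 lowest and replicate 3 highest like most of the set, also held 0.
AtLEA4-1: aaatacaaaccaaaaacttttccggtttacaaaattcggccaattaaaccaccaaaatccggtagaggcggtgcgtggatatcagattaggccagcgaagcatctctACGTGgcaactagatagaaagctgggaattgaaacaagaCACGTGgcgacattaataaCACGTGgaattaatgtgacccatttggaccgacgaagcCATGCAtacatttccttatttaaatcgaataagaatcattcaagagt
TIP3;1: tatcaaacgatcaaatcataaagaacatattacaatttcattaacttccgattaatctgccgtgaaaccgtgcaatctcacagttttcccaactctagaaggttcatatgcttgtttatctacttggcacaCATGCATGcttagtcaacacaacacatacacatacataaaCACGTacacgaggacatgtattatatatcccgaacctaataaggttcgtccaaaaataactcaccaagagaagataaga
PAP85: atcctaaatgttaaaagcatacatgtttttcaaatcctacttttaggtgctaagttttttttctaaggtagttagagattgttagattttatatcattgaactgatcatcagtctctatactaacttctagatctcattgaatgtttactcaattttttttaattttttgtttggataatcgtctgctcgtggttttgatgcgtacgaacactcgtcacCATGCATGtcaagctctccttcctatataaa
LEA: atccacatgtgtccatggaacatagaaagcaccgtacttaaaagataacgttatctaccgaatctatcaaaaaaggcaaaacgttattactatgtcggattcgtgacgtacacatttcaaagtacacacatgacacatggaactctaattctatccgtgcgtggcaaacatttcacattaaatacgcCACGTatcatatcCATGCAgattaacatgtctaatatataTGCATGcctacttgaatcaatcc
AT1G04560: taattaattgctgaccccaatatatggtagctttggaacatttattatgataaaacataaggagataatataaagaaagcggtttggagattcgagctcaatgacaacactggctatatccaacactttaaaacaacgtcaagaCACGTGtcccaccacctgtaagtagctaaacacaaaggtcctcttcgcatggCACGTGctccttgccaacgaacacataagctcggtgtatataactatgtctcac
PDF2.1: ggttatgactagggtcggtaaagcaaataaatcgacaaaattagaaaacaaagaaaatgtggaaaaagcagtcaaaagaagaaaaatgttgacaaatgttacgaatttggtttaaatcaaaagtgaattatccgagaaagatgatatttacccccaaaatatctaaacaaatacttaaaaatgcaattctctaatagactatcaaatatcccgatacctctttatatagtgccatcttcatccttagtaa

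Over the 300-base windows, the RY core was present in 20 of the 41 genes (48.8%), against 8.34% of the 16857 nuclear genes of the table. The longer RY repeat was present in 4 genes (9.76%, against 0.700%). Elements of the abscisic acid pathway were also present in larger shares than over the table. The ABRE core was present in 28 genes (68.3%, against 27.4%), and the G-box in 13 genes (31.7%, against 9.14%). RY core and ABRE core occurred together in 13 genes, 31.7% against 2.55% of nuclear genes, and at least 1 of them occurred in 35 genes, 85.4% against 33.2%. The TATA box TATAAA, searched on the gene's strand as a motif outside this programme, was present in 12 genes, and its share of 29.3% lay below the 35.9% of nuclear genes. All 37883 nuclear genes of the RefSeq annotation, expressed or not, gave shares near those of the table, 10.4% for the RY core and 24.6% for the ABRE core. Among the 16 cruciferins, albumins and oleosins, the RY core was present in 93.8% and the ABRE core in 68.8%. A match is a run of letters and not a known binding site, and no share was tested. The 24 LEA and dehydrin genes of the table outside the set had the RY core in 3 windows and the ABRE core in 17.

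**Figure D1:**
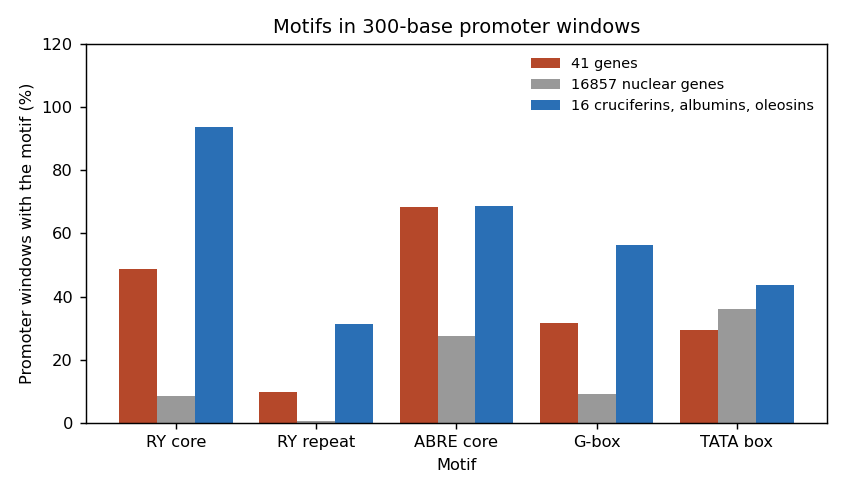
Share of 300-base promoter windows (y axis, percent) that hold each of 5 motifs (x axis), for the 41 genes, all 16857 nuclear genes of the table and the 16 cruciferins, albumins and oleosins. The bars of the 41 genes stand at 48.8% for the RY core and 68.3% for the ABRE core against 8.34% and 27.4% of nuclear genes, and at 29.3% against 35.9% for the TATA box.

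The 41 genes were also short and simple in structure. Their median transcript length was 1059 bases, against 1720 bases over the nuclear genes of the table. They had a median of 2 introns against 4, and 8 of them (19.5%) had none, against 13.9% of nuclear genes. Median GC content of the transcript was 43.5% against 41.4%, and the encoded proteins had a median of 241 residues against 384. Along the chromosomes the genes were scattered, with 1 adjacent pair, ICL (AT3G21720) and FOLB3 (AT3G21730), which lay 3481 bases apart with no gene between them.

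Library depth, recovered from the steps in the RPKM values, ranged from 13677094 to 20547689 reads. TT7 (AT5G07990), examined first as the mutated gene, measured 499, 272 and 240 RPKM in the Col-0 libraries, given here and throughout in the order of replicates 1 to 3, against 86.0, 97.4 and 103 RPKM in the tt7-7 libraries, so the groups did not overlap. The labels do not say whether the 3 samples of a genotype came from separate plants, and p-values therefore measure only the spread between these samples, which may be technical. The 3 wild-type libraries stood well apart in the storage genes themselves. The 16 cruciferins, albumins and oleosins took 2.10%, 4.43% and 14.0% of all Col-0 reads and 0.446%, 0.117% and 0.657% of all tt7-7 reads.

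The summed level of the 41 genes was 558, 1280 and 4545 RPKM in Col-0, an order fixed by the choice of genes. In tt7-7 the sum was 258, 223 and 425 RPKM, lower in each tt7-7 library than in any Col-0 library. The storage genes summed to 21556, 44535 and 132857 RPKM in Col-0 and to 4627, 1261 and 6748 RPKM in tt7-7, with replicate 2 the lowest and replicate 3 the highest mutant library for both sets. The sets did not keep 1 ratio to each other. For each 100 RPKM of storage transcripts there were 2.59, 2.87 and 3.42 RPKM of the 41 genes in Col-0, and 5.58, 17.7 and 6.29 RPKM in tt7-7. The high value of tt7-7 replicate 2 rested in part on PDF2.1, LHB1B1 and AT2G33830, which held 129.8 of its 223 RPKM and departed from the other genes in tt7-7. Without these 3 genes the tt7-7 sum was 198, 93.3 and 309 RPKM, and the ratio to storage transcripts was 2.27, 2.57 and 3.18 in Col-0 and 4.27, 7.40 and 4.58 in tt7-7. Fewer cells of a type and less RNA per cell cannot be told apart in these bulk samples.

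**Figure D2:**
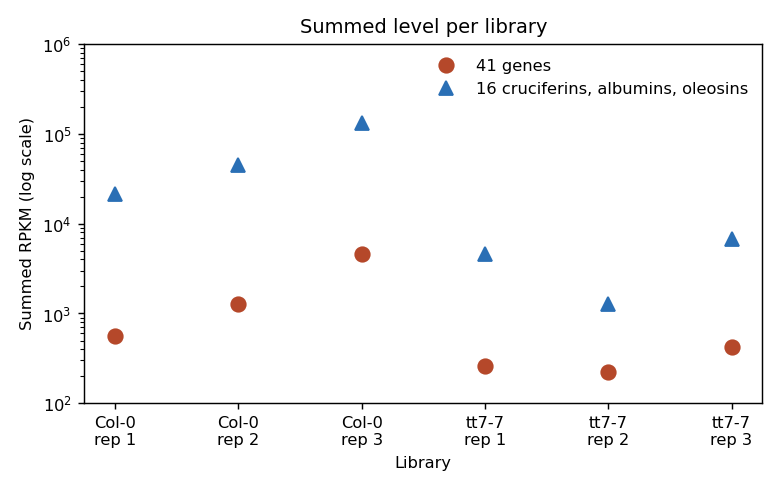
Summed RPKM (y axis, log scale) of the 41 genes (circles) and of the 16 cruciferins, albumins and oleosins (triangles) in each of the 6 libraries (x axis). Both sums are lowest in tt7-7 replicate 2, at 223 and 1261 RPKM, and highest in Col-0 replicate 3, at 4545 and 132857 RPKM.

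Within tt7-7 the 41 genes kept largely to 1 order of the libraries, and it was not the order of the replicate numbers. Replicate 2 was lowest, replicate 1 intermediate and replicate 3 highest for 30 of the 41 genes (73.2%), against 16.5% of all nuclear genes. A further 7 genes (17.1%, against 11.6%) were also lowest in replicate 2 but highest in replicate 1. Replicate 2 was thus the lowest tt7-7 library for 37 genes (90.2%, against 28.1% of nuclear genes), and replicate 3 the highest for 32 (78%, against 36.5%). All 16 storage genes had replicate 2 lowest, and 15 of them had replicate 3 highest. Compared in pairs, replicate 3 exceeded replicate 2 for 39 of the 41 genes (48.1% of nuclear genes), replicate 1 exceeded replicate 2 for 37 (44.0%), and replicate 3 exceeded replicate 1 for 33 (53.6%). With 3 libraries of 1 genotype these counts carry no test, and the genes are not replicates, since all are read from the same libraries.

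**Figure D3:**
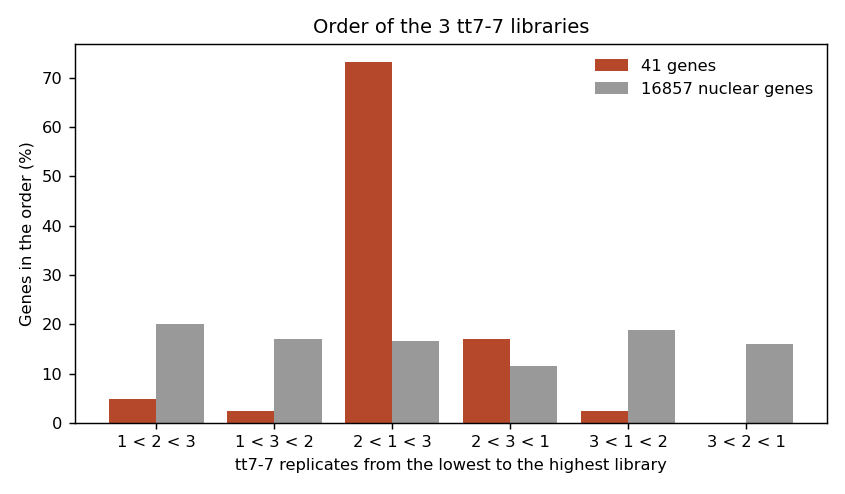
Share of genes (y axis, percent) in each of the 6 possible orders of the 3 tt7-7 libraries (x axis, lowest to highest), for the 41 genes and for all 16857 nuclear genes. The order with replicate 2 lowest and replicate 3 highest holds 73.2% of the 41 genes and 16.5% of nuclear genes.

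The size of the difference between mutant libraries varied among the genes. The median log2 ratio of tt7-7 replicate 3 to replicate 2, on RPKM with 1 added, was 1.02 and the range was -0.56 to 2.61, whereas the median over nuclear genes was -0.01 and that of the 16 storage genes was 2.30. A ratio of at least 1 on the log2 scale was found for 21 of the 41 genes and for 1.07% of nuclear genes. Depth set how well single genes could be placed. The 41 genes had 3 to 861 reads in tt7-7 replicate 2, of which 13 had under 20, compared with 200 to 16843 reads in Col-0 replicate 3. An exact (Clopper-Pearson) 95% interval of the ratio of replicate 3 to replicate 2 lay above 1 for 33 genes, below 1 for 1 gene and held 1 for 7. These intervals cover counting error only. Of the 30 genes in the main tt7-7 order, whose ratios are above 1 by definition, 28 had an interval above 1. The intervals do not place replicate 1. Because genes were deposited only where all 3 libraries of a genotype exceeded 2 RPKM, genes under that level in Col-0 replicate 1 and in any tt7-7 library were not analysed here, and 40 of the 41 genes met that minimum in Col-0.

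The log2 ratio of Col-0 replicate 3 to replicate 1, on RPKM with 1 added, had a median of 2.54 and reached 5.32, values that the choice of genes set in part, and for 34 genes the step from replicate 2 to replicate 3 was larger than the step from replicate 1 to replicate 2.

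**Figure D4:**
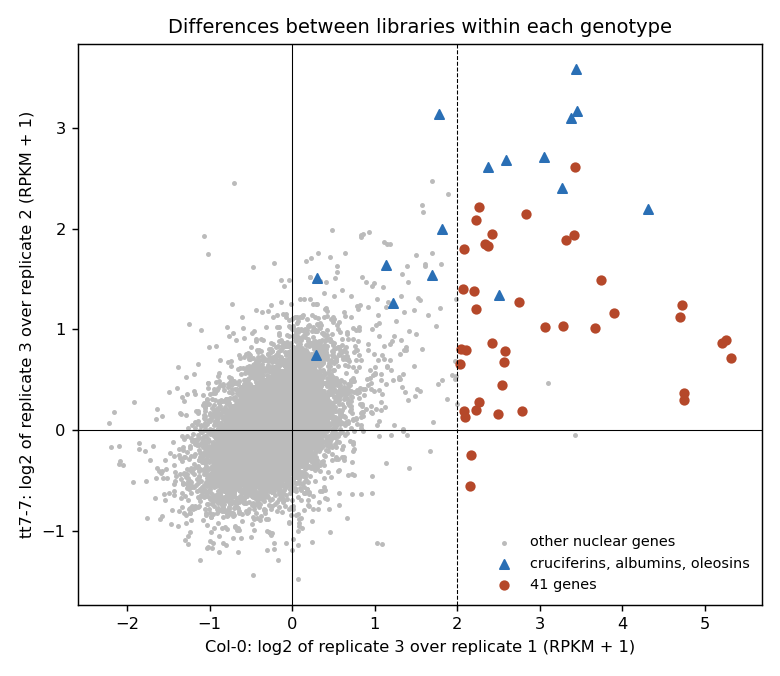
Log2 ratio of Col-0 replicate 3 to replicate 1 (x axis) against log2 ratio of tt7-7 replicate 3 to replicate 2 (y axis), both on RPKM with 1 added, for each nuclear gene; the dashed line is the 4-fold threshold of the choice. Of the 41 genes, 39 lie above 0 on the y axis, and the storage genes (triangles) have the higher median there, 2.30 against 1.02.

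Proteins of the storage vacuole were represented by a vicilin-like protein and a pair of aquaporins. PAP85 (AT3G22640), a vicilin-like storage globulin, was at 109, 238 and 514 RPKM in Col-0 and at 32.8, 12.4 and 55.8 RPKM in tt7-7. TIP3;1 (AT1G73190), an aquaporin of the protein storage vacuole membrane, was at 11.9, 37.5 and 172 RPKM in Col-0 and at 2.01, 0.631 and 3.59 RPKM in tt7-7, the last value 5.69 times the one before it (95% interval 3.27 to 10.6). BETA-TIP (AT1G17810), the related seed aquaporin, was at 8.17, 18.0 and 60.8 RPKM in Col-0 and at 3.61, 1.23 and 4.37 RPKM in tt7-7. All 3 genes had their lowest level of the 6 in tt7-7 replicate 2, and no tt7-7 library reached any Col-0 library. Processing enzymes and sorting receptors of the same list stood outside the set, as with BETA-VPE, a protease that matures storage proteins, at 39.3, 55.0 and 90.8 RPKM in Col-0 and 43.4, 28.2 and 46.5 RPKM in tt7-7. AT2G28490, another cupin protein and outside the set because its Col-0 ratio was too small, was at 117, 177 and 355 RPKM in Col-0 and at 42.7, 13.4 and 63.6 RPKM in tt7-7. Of the 11 genes of that list outside the set, 7 had the tt7-7 order with replicate 2 lowest and replicate 3 highest.

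The set held 4 genes for oil body proteins other than oleosins. ATS1 (AT4G26740), a caleosin, which is a calcium-binding oil body protein with peroxygenase activity, was at 83.8, 183 and 408 RPKM in Col-0 and at 27.1, 8.57 and 43.4 RPKM in tt7-7. ATPXG2 (AT5G55240), a second peroxygenase of that family, was at 12.7, 23.2 and 67.8 RPKM in Col-0 and at 3.04, 0.800 and 5.46 RPKM in tt7-7. HSD5 (AT4G10020), of the steroleosin family, was much lower, at 2.79, 6.27 and 15.4 RPKM in Col-0 and 1.53, 0.982 and 2.44 RPKM in tt7-7. In all 3 genes tt7-7 replicate 2 was lowest and replicate 3 highest, and the genotypes did not overlap. AT1G05510, annotated with a domain of unknown function and the synonym of an oil body-associated protein, was at 4.72, 15.9 and 150 RPKM in Col-0 and 1.7, 0.911 and 3.52 RPKM in tt7-7. With 1 RPKM added, its Col-0 replicate 3 was 26.4-fold above replicate 1, against 4.82-fold for ATS1, while its tt7-7 libraries were in the same order. Among the 7 genes of the list outside the set, 1 had that tt7-7 order.

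LEA proteins were the largest named group. LEA (AT2G21490), a dehydrin, was at 39.2, 110 and 287 RPKM in Col-0 and at 11.8, 4.09 and 21.5 RPKM in tt7-7. AT3G15670, a LEA protein, had the largest Col-0 ratio of the 41 genes on RPKM with 1 added, at 4.63, 25.2 and 224 RPKM, and was at 3.21, 2.19 and 4.25 RPKM in tt7-7. AT3G17520, another LEA protein, was at 9.24, 25 and 101 RPKM in Col-0 and at 2.32, 1.21 and 7.19 RPKM in tt7-7. Thus genes with very different Col-0 spreads shared an order in tt7-7. AtLEA4-1 (AT1G32560), whose promoter had the most motif matches, was at 10.3, 21.3 and 57.4 RPKM in Col-0 and at 5.16, 3.46 and 14.9 RPKM in tt7-7, so its highest tt7-7 library exceeded its lowest Col-0 library. AT4G21020 also overlapped, at 6.76, 20.5 and 74.6 RPKM in Col-0 and 7.17, 4.14 and 9.53 RPKM in tt7-7. AT3G02480 was the exception in order, with 7.43, 17.7 and 217 RPKM in Col-0 and 5.02, 1.35 and 4.12 RPKM in tt7-7, where replicate 1 was highest. The difference between its tt7-7 replicates 1 and 3 rested on 43 and 46 reads in libraries of unequal depth. LEA7 (AT1G52690) lay just inside the fold threshold, at 9.71, 21.8 and 43.3 RPKM in Col-0 and 5.96, 4.78 and 9.09 RPKM in tt7-7. Of the 24 LEA and dehydrin genes outside the set, 5 had the tt7-7 order with replicate 2 lowest and replicate 3 highest. These included RAB18, an abscisic acid-responsive dehydrin, at 16.1, 46.7 and 59.0 RPKM in Col-0 and 13.5, 9.84 and 14.3 RPKM in tt7-7. The stress dehydrins ERD10 and ERD14 were among those with another order, ERD14 being at 303, 287 and 237 RPKM in Col-0 and 256, 420 and 329 RPKM in tt7-7.

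PER1 (AT1G48130), a seed peroxiredoxin that removes peroxides in the embryo and aleurone, was the stress protection gene of the set. It was at 33.8, 66.8 and 185 RPKM in Col-0 and at 12.8, 3.98 and 18.2 RPKM in tt7-7, with replicate 3 of tt7-7 at 4.58 times replicate 2 (95% interval 3.61 to 5.86). Outside the set, the heat shock protein gene HSP101 was at 17.0, 5.81 and 30.5 RPKM in Col-0 and 27.3, 70.7 and 88.7 RPKM in tt7-7, higher in replicate 2 than in replicate 1 of tt7-7, unlike PER1. Of the 9 genes of that list outside the set, 2 had tt7-7 replicate 2 lowest and replicate 3 highest, like PER1. GolS1, ELIP1 and ELIP2 of the same list also had tt7-7 replicate 2 lowest, with replicate 1 highest.

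Several of the highest genes in Col-0 replicate 3 had no place in the lists. AT1G04560, of the AWPM-19-like membrane protein family, was at 37.3, 90.3 and 409 RPKM in Col-0 and at 3.38, 1.86 and 9.97 RPKM in tt7-7. AT2G05580, a glycine-rich protein, was at 5.37, 23.3 and 243 RPKM in Col-0 and at 1.73, 1.12 and 2.96 RPKM in tt7-7. AT1G14950, of the polyketide cyclase and lipid transport superfamily, was at 2.82, 7.01 and 140 RPKM in Col-0 and at 1.44, 0.704 and 2.10 RPKM in tt7-7. In these genes the mutant libraries spanned few-fold differences while Col-0 replicate 3 stood far above every other library. AT2G15010, annotated as a thionin, a class of small defence peptides, was at 8.36, 22 and 118 RPKM in Col-0 and at 1.37, 0.775 and 2.59 RPKM in tt7-7. AT1G19900, related to glyoxal oxidases, was at 2.68, 6.29 and 97.9 RPKM in Col-0 and at 1.45, 0.572 and 1.03 RPKM in tt7-7. AT1G54870, a Rossmann-fold oxidoreductase, was at 2.21, 14.0 and 85.4 RPKM in Col-0 and at 3.17, 2.41 and 3.19 RPKM in tt7-7. The tt7-7 levels of AT1G54870 all exceeded Col-0 replicate 1, and their ratio of replicate 3 to replicate 2 had an interval holding 1 (0.944 to 1.87). AT1G27461, an uncharacterized protein, had the widest tt7-7 difference of the set, at 8.02, 19.2 and 96.4 RPKM in Col-0 and at 4.72, 2.57 and 20.9 RPKM in tt7-7, where replicate 3 was 8.11 times replicate 2 (95% interval 6.28 to 10.6). AT5G55750, a hydroxyproline-rich protein, was at 2.07, 6.99 and 45.0 RPKM in Col-0 and at 1.82, 0.263 and 1.83 RPKM in tt7-7, the second of these resting on 3 reads.

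Of the other genes of the set, 3 with roles in metabolism or iron storage are given here, chosen after their values were seen. ICL (AT3G21720), isocitrate lyase of the glyoxylate cycle, by which seedlings turn stored oil into sugar, was at 4.64, 7.57 and 29.2 RPKM in Col-0 and at 2.99, 1.64 and 3.81 RPKM in tt7-7. NADP-ME1 (AT2G19900), a malic enzyme that makes NADPH, was at 2.39, 4.39 and 18.1 RPKM in Col-0 and 2.10, 2.05 and 2.42 RPKM in tt7-7. FER2 (AT3G11050), a ferritin, which stores iron, was at 6.27, 8.53 and 34.0 RPKM in Col-0 and 6.32, 4.45 and 5.62 RPKM in tt7-7. For NADP-ME1 and FER2 the interval of the ratio of tt7-7 replicate 3 to replicate 2 held 1, and for ICL it lay above 1.

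A few genes departed from the rest in tt7-7. PDF2.1 (AT2G02120), a plant defensin, was at 41.3, 56.0 and 188 RPKM in Col-0 and at 43.9, 67.9 and 45.9 RPKM in tt7-7, and was the gene whose interval lay below 1, at 0.675 (95% interval 0.605 to 0.754). LHB1B1 (AT2G34430), a chlorophyll a/b-binding protein of the photosystem antenna, was at 21.5, 57.5 and 95.2 RPKM in Col-0 and at 8.02, 32.5 and 35.7 RPKM in tt7-7. AT2G33830, of the dormancy and auxin associated family, was at 6.05, 22.8 and 32.1 RPKM in Col-0 and at 8.81, 29.3 and 33.7 RPKM in tt7-7. For LHB1B1 and AT2G33830 replicate 1 was the low library in both genotypes, and replicates 2 and 3 of tt7-7 were close. FOLB3 (AT3G21730), dihydroneopterin aldolase of folate synthesis, was at 2.56, 2.76 and 14.9 RPKM in Col-0 and at 4.07, 4.15 and 3.32 RPKM in tt7-7, unlike its neighbour ICL. PYD4 (AT3G08860), annotated as PYRIMIDINE 4, was at 1.75, 2.51 and 10.6 RPKM in Col-0 and at 5.42, 3.14 and 3.71 RPKM in tt7-7, and it was in the table only through its tt7-7 levels. PELPK1 (AT5G09530), a hydroxyproline-rich protein, was at 2.92, 3.02 and 26.1 RPKM in Col-0 and at 3.50, 2.53 and 3.02 RPKM in tt7-7. LHB1B1 belongs to a family of near-identical genes, so its reads are uncertain. Among the 11 genes outside the main tt7-7 order 2 had the RY core (95% interval of the share 2.28% to 51.8%). Among the 30 within it 18 had one (40.6% to 77.3%), so the intervals overlapped. The ABRE core was present in 6 of the 11 and in 22 of the 30. A link of motifs with the order was not tested.

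**Figure D5:**
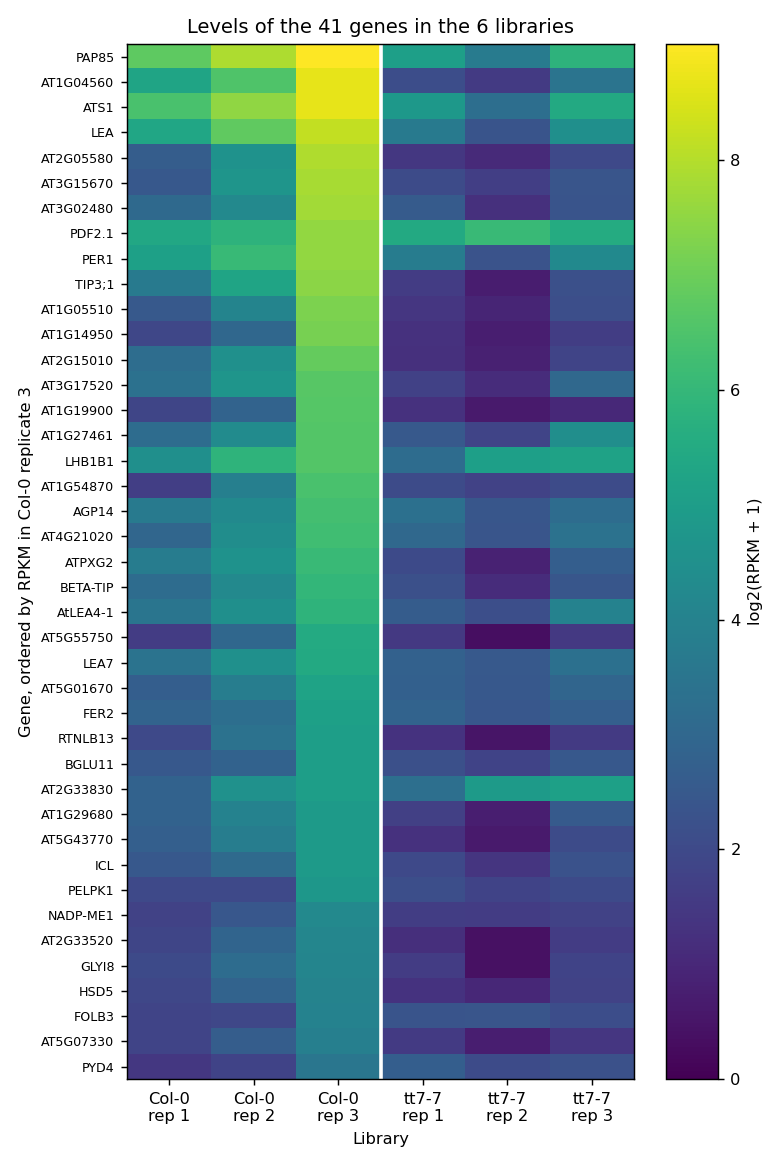
Levels as log2(RPKM + 1) (colour) of the 41 genes (rows, by RPKM in Col-0 replicate 3) in the 6 libraries (columns). Col-0 replicate 3 is the brightest column by construction; tt7-7 replicate 2 is the darkest for most rows, and PDF2.1, LHB1B1 and AT2G33830 stand out as bright in it, at 67.9, 32.5 and 29.3 RPKM.

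Genotypes were compared with limma on log2(RPKM + 1) over 16663 genes, with Benjamini-Hochberg adjustment and a threshold of 0.05. Of the 41 genes, 28 were called lower in tt7-7, 0 higher and 13 neither, against 8.47% of all tested genes called lower and 51.1% called higher. In 28 of the 41 genes all 3 tt7-7 libraries lay below all 3 Col-0 libraries, as did 9.97% of tested genes. Those 28 included BGLU11, which was not called, and left out AtLEA4-1, which was called lower. The 41 genes were chosen on the Col-0 values of this contrast, including a high replicate 3, so nothing is read from these shares. The differences and adjusted p-values of single genes below share those Col-0 values and are likewise given as a description only. The median log2 difference, tt7-7 minus Col-0, was -2.04 for the 41 genes and 0.44 for all tested genes, and without Col-0 replicate 3 it was -1.24 for the 41 genes. The largest difference was that of AT1G04560, at -4.45 (SE 0.772, adjusted p = 0.00116 in limma), followed by TIP3;1 at -3.97 (SE 0.784, adjusted p = 0.00226). The 5 genes with differences nearest to or above 0 were AT2G33830 at 0.30, PYD4 at 0.05, FOLB3 at -0.31, PDF2.1 at -0.55 and PELPK1 at -0.91, none of which passed the threshold. Calls over all genes depended on scaling: 85.8% of calls were higher in tt7-7 with RPKM as deposited and 48.4% with median-ratio scaling, which moved the median of all genes from 0.438 to -0.0339. Relative to those medians the 41 genes stood at -2.48 and -2.44. The signs of AT2G33830 and PYD4 turned with that scaling, to -0.196 and -0.364.

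The listed groups were compared in the same fit. Genes of the set are in these lists and were chosen on the Col-0 values of this contrast. Each count from RPKM as deposited is therefore also given without them, and 8.47% of all tested genes were called lower. Of the 31 LEA and dehydrin genes 16 were called lower and 1 higher (median log2 difference -0.73), and of the 24 outside the set 10 were lower and 1 higher (median -0.42). Of the 14 storage vacuole genes 8 were lower and 2 higher (median -0.60), and of the 11 outside the set 5 were lower and 2 higher (median -0.48). The oil body list differed most, with 5 of 11 lower and 3 higher (median -0.14) but 1 of 7 lower and 3 higher outside the set (median -0.09). The 10 stress protection genes had 2 lower and 2 higher (median 0.09), and the 9 outside the set 1 lower and 2 higher (median 0.22). The 16 oil synthesis genes, none of them in the set, had 4 lower and 2 higher (median -0.06), but 12 lower and 0 higher with median-ratio scaling. The 4 lists before it, with genes of the set included, also held more lower calls with that scaling. LEA and dehydrin genes had 23 lower and 0 higher, and storage vacuole genes 10 and 0. Oil body genes had 8 lower and 2 higher, and stress protection genes 4 and 0. Over all 16553 genes tested with that scaling, 4597 were lower and 4304 higher. Of the 17 maturation regulators, also outside the set, 10 were called higher in tt7-7 and 1 lower (median 0.74), beside the 51.1% of all tested genes called higher, and with median-ratio scaling 5 were higher and 3 lower. ABI3, the B3 factor of the abscisic acid response, was at 10.9, 15.8 and 15.9 RPKM in Col-0 and at 24.8, 17.2 and 32.2 RPKM in tt7-7. EEL, a leucine zipper factor, was at 21.3, 34.7 and 41.4 RPKM in Col-0 and at 32.2, 22.9 and 42.3 RPKM in tt7-7. DPBF2, another leucine zipper factor, was at 5.15, 6.55 and 15.1 RPKM in Col-0 and at 7.45, 6.76 and 12.5 RPKM in tt7-7. These were the 3 regulators of the list in the Col-0 order of the 41 genes, and each also had tt7-7 replicate 2 lowest and replicate 3 highest, with tt7-7 levels within or above their Col-0 range. LEC1, by contrast, was at 135, 115 and 88.4 RPKM in Col-0 and at 101, 95.9 and 78.7 RPKM in tt7-7, lowest in replicate 3 of both. Its falling order was held by 46% of nuclear genes in Col-0 and by 15.9% in tt7-7.

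Markers of seed tissues also differed among the libraries. Embryo markers, of which 7 of 9 were in the table, summed to 632, 813 and 689 RPKM in Col-0 and to 549, 369 and 555 RPKM in tt7-7. Endosperm markers, 7 of 11, summed to 676, 856 and 987 RPKM in Col-0 and to 1137, 598 and 1303 RPKM in tt7-7, most of it from EPR1, at 492, 704 and 887 RPKM in Col-0 and 939, 393 and 1130 RPKM in tt7-7. The embryo sum in turn came mostly from PDF1, at 435, 640 and 552 RPKM in Col-0 and 339, 178 and 373 RPKM in tt7-7. Both sums were lowest in tt7-7 replicate 2, and this rested on these genes. Without PDF1 the embryo sum was 196, 173 and 137.5 RPKM in Col-0 and 210, 191 and 182 RPKM in tt7-7. Without EPR1 the endosperm sum was 184, 152 and 100 RPKM in Col-0 and 199, 204 and 173 RPKM in tt7-7. Both remaining sums fell from replicate 1 to replicate 3 in Col-0, and were lowest in replicate 3 of tt7-7 too. Seed coat markers, 9 of 9, summed to 2536, 2658 and 1829 RPKM in Col-0 and to 2809, 2359 and 2296 RPKM in tt7-7. The largest part of that sum came from ARA12, at 1472, 1564 and 1103 RPKM in Col-0 and 1196, 1049 and 937 RPKM in tt7-7. BAN, anthocyanidin reductase of the tannin-producing inner seed coat, was at 127, 67.3 and 39.8 RPKM in Col-0 and at 427, 397 and 285 RPKM in tt7-7, the reverse of the Col-0 order of the 41 genes. That falling order was held by 46% of nuclear genes in Col-0 and by 15.9% in tt7-7. Fruit wall markers, 4 of 5, summed to 57.5, 57.9 and 50.3 RPKM in Col-0 and to 106, 111 and 108 RPKM in tt7-7. In the fit, 5 of the 9 seed coat, 2 of the 7 endosperm, 2 of the 7 embryo and 3 of the 4 fruit wall markers were called higher in tt7-7, and 1 embryo marker lower, beside the 51.1% of all tested genes called higher and 8.47% called lower. With median-ratio scaling 5 seed coat, 2 endosperm, 1 embryo and 2 fruit wall markers were called higher, and 3, 1, 4 and 0 lower. The part of tissue makeup in the levels of the 41 genes was not tested.

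At the threshold of the choice, the genes just inside were AT5G07330, LEA7 and GLYI8, with ratios of Col-0 replicate 3 to replicate 1 of 4.10, 4.13 and 4.22. Those just outside were PRR5, a clock gene, AT2G25770 and AT1G03106, with ratios of 3.99, 3.96 and 3.95. AT2G25770 and AT1G03106 had tt7-7 replicate 2 lowest and replicate 3 highest, like LEA7 and GLYI8, whereas PRR5 was at 5.89, 26.5 and 26.5 RPKM in Col-0 and 4.79, 16.9 and 20.5 RPKM in tt7-7. No gene with the Col-0 order and ratio was lost to the minimum of 5 RPKM. Of the 41 genes, 9 overlap another gene model, 8 of them one in the table. The overlaps ran from 8 bases for FER2, whose partner is on the same strand, to 1118 bases for HSD5. Because strandedness is not given in the sources used here, reads within the shared bases cannot be told apart from those of the partner. TIP3;1, LEA7, BETA-TIP, HSD5 and AT1G05510 were among these 9.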

How the data were processed

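RNA was extracted from seeds of 3 Col-0 and 3 tt7-7 samples, and sequenced on Illumina libraries, per the labels. The authors deposited 1 table of RPKM values for 16967 genes, with decimal commas. The submitters' processing notes name the build TAIR10 and cutadapt, FastQC, HISAT2, HTSeq and DESeq2; the sources used here give no version, setting or role. Every deposited gene exceeded 2 RPKM in all 3 samples of a genotype. All 16857 nuclear identifiers matched RefSeq TAIR10.1.

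RPKM values step by 1 read, and with the longest RefSeq transcript as length, 16855 genes (99.3%) gave whole reads within 0.02 in all 6 libraries; these reads set depth and intervals. Totals were 20547689, 13677094 and 19327827 reads for Col-0 and 15577456, 20162748 and 20300393 for tt7-7. Libraries of a genotype differed by a chi-square of 22.4 to 163 per degree of freedom, so none was a duplicate.

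The fit was limma 3.58.1 (R 4.3.3) with an intensity-dependent prior on log2(RPKM + 1), genes with a mean of at least 2 RPKM, all 6 samples and no covariate, which understates changes of low genes; two-sided p-values were adjusted by Benjamini-Hochberg. All 41 genes passed the filter. The fit and the read recovery were tested on simulated data. Orders, ratios, motifs and figures used Python 3.11.15, numpy 2.4.6, pandas 2.3.3, scipy 1.17.1 and matplotlib 3.10.9. AT1G03890 was treated as a cruciferin.

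The genes, lists and tests were chosen with earlier results of these data known. Genes named were the 12 highest in Col-0 replicate 3, the 8 with the largest Col-0 ratio, up to 6 per list, the 8 highest in tt7-7, the 5 at each end of the genotype difference, the 3 on each side of the threshold and the 8 with the largest ratio of tt7-7 replicate 3 to replicate 2, plus those said to be chosen after their values were seen; listed regulators and markers outside the set were named for comparison. Alternatives were other pseudocounts, filters, scalings and folds, limma voom on the recovered reads, a block for the replicate number, and libraries left out in turn. Sums without single genes, and lists without the set or with median-ratio scaling, were added after the data were seen. Residue shares of the proteins were planned and not run.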

Additional observations from a re-analysis of the deposited data

How the results depend on the processing

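The tt7-7 order with replicate 2 lowest and replicate 3 highest held for 28 of the 41 genes with median-ratio scaling (15.7% of nuclear genes) and for 21 of the 30 genes with a tt7-7 mean of at least 2 RPKM. The median log2 ratio of tt7-7 replicate 3 to replicate 2 was 1.45 with a pseudocount of 0.1 RPKM and 0.922 with median-ratio scaling. The set itself held 62 genes with a fold of 3 and 15 with a fold of 8, and 47 to 56 under the other settings, each including the 41 except the fold of 8, which kept 15. It could not be rebuilt with a Col-0 library left out. Calls lower in tt7-7 numbered 18 with a mean of at least 10 RPKM, which leaves fewer genes tested, 21 with voom, and with a library left out 19 (tt7-7 replicate 2) to 36 (Col-0 replicate 1). Calls higher numbered 0 to 1, the 1 being PYD4, at 0.689 without Col-0 replicate 3. The median log2 difference ran from -2.78 with Col-0 replicate 1 left out to -1.24 with Col-0 replicate 3 left out. Same-numbered samples had correlations of their deviations of 0.211, -0.19 and 0.474, and not every sample correlated best with its own number. The deviations within a genotype depend on each other, so these values cannot decide whether the numbers pair the samples. With the replicate number as a block 36 genes were called lower and the median was -2.04. Over the single genes and these settings, 493 results kept direction and side of the threshold, 31 lost the call, 24 gained it and 12 turned sign; the cause was not tested. Those 12 were genes that did not pass the threshold: with 1 library left out PDF2.1 ran from -0.98 to 0.0988, PELPK1 from -1.38 to 0.01 and FOLB3 from -0.68 to 0.401, each positive without Col-0 replicate 3 alone. AT2G33830 was at -0.196 with median-ratio scaling and -0.0762 with quantile normalization, and ran from -0.366 (Col-0 replicate 1 left out) to 0.873, with -0.0386 when tt7-7 replicate 3 was left out. PYD4 was at -0.364 with median-ratio scaling and -0.513 with quantile normalization, and ran from -0.352 to 0.689, with negative values when Col-0 replicate 1 was left out, when Col-0 replicate 2 was (-0.177) and when tt7-7 replicate 1 was (-0.126). With only the 250 bases before the start searched, the RY core was in 43.9% and the ABRE core in 63.4% of the 41 genes. Reads limit the low genes: 13 had under 20 reads and 32 under 100 in tt7-7 replicate 2.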

Other observations

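Other orders of the Col-0 libraries also held genes past the same fold and level. With the ratio taken between the highest and lowest library of each order, and storage genes left out, 16 nuclear genes had replicate 2 lowest and replicate 1 highest, 7 had replicate 2 lowest and replicate 3 highest, and 7 had replicate 3 lowest and replicate 1 highest, against the 41 in the order used here. Only 5.77% of all nuclear genes had the Col-0 order of the 41 genes, the fewest of the 6 orders, and 46% had its reverse. These shares are of RPKM as deposited and depend on scaling. The median-ratio factors of Col-0 replicates 1 to 3 fell from 0.932 to 0.837 and 0.757, and the Col-0 orders were not counted after that scaling.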
